A study of Mus musculus with 24 samples.

Results

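Enriched environment was examined in the GH mice of a bulk RNA-sequencing study of the mouse medial prefrontal cortex. The 4 libraries titled GH_EE were set against the 4 titled GH_Con, 8 of the 24 libraries of the series. GH_EE libraries carry the treatment label EE, the enriched environment of the series title, and GH_Con libraries the treatment label control. Both groups carry the genotype label 5xFAD, a transgenic model of Alzheimer's disease in which mutated human transgenes are driven by the neuronal Thy1 promoter, so the controls carry the transgenes too. The other 16 libraries are 4 each of SI_EE, SI_Con (treatment label SI), GH_WT and SI_WT, also labelled 5xFAD, where SI marks the social isolation of the series title. The meaning of GH, the nature of the WT arm, the length of enrichment and the age of the mice are not stated in the labels. Nothing in the labels ties a library to a separate mouse, and p-values therefore reflect only how far these samples spread, which may be technical.

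An enriched environment is a cage with more space, objects and often company than standard housing. It is known for engaging neuronal activity in cortex. Firing neurons switch on immediate early genes within minutes: transcription factors such as Fos and Egr2 first, then effectors such as Arc that act at synapses. Clock genes, chaperones and glial programmes are also known to move with arousal, stress hormones and the activity of a mouse in its cage. In bulk tissue, fewer cells of a type and less RNA per cell cannot be told apart.

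Total counts ran from 34559842 to 39361685 over the 8 libraries and from 33683587 to 51274917 over all 24. Reads of Xist, the RNA that coats the inactive X chromosome in females, put 2 female and 2 male libraries in GH_EE (females 2 and 3, males 1 and 4), and 3 female and 1 male library in GH_Con (male 4). Markers of cortical layers summed to 1426 to 1603 CPM (read counts scaled to library size) in GH_EE and 1292 to 1490 CPM in GH_Con. Striatal markers summed to 1493, 1446, 2601 and 2614 CPM in GH_EE, against 1824 to 1998 CPM in GH_Con. Markers of blood summed to 0.721 to 13.3 CPM in GH_EE, against 29.37, 23.96, 3.864 and 188.5 CPM in GH_Con, where replicate 4 was the highest. An entry spelled APP, as the human gene is, was read at 1797, 2653, 3836 and 1885 CPM in GH_EE and at 3736, 3547, 3019 and 1500 CPM in GH_Con. The sequence counted under this entry is not given in the sources used here.

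A single gene passed the test across all genes. Gm5514, a processed pseudogene on chromosome 19 (21937380 to 21938381, plus strand, GRCm38), rose in GH_EE. Its level was 25.9, 27.9, 0.965 and 26.5 CPM in GH_EE 1 to 4, against 0.707, 0.718, 0.887 and 0.646 CPM in GH_Con. GH_EE 1, 2 and 4 stood far above every other library of the series, and GH_EE 3 was level with the GH_WT, SI_EE, SI_Con and SI_WT libraries, which ran up to 1.31 CPM. The log2 fold change was 4.77 (SE 0.60, adjusted p = 0.00137, edgeR's quasi-likelihood test with Benjamini-Hochberg adjustment over 20354 genes), so 0.00491% of genes were called. A processed pseudogene is a retrotransposed copy of a transcript, and how reads were shared between copies is not stated, so its level is uncertain. The call was lost with limma-voom (log2 fold change 3.996, adjusted p = 0.58), with the 8 libraries alone (4.78, adjusted p = 0.186), without the 4 libraries in which longer genes read lower (4.77, adjusted p = 0.158) and with female libraries alone in GH_EE and GH_Con (4.22, adjusted p = 0.284).

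**Figure D1:**
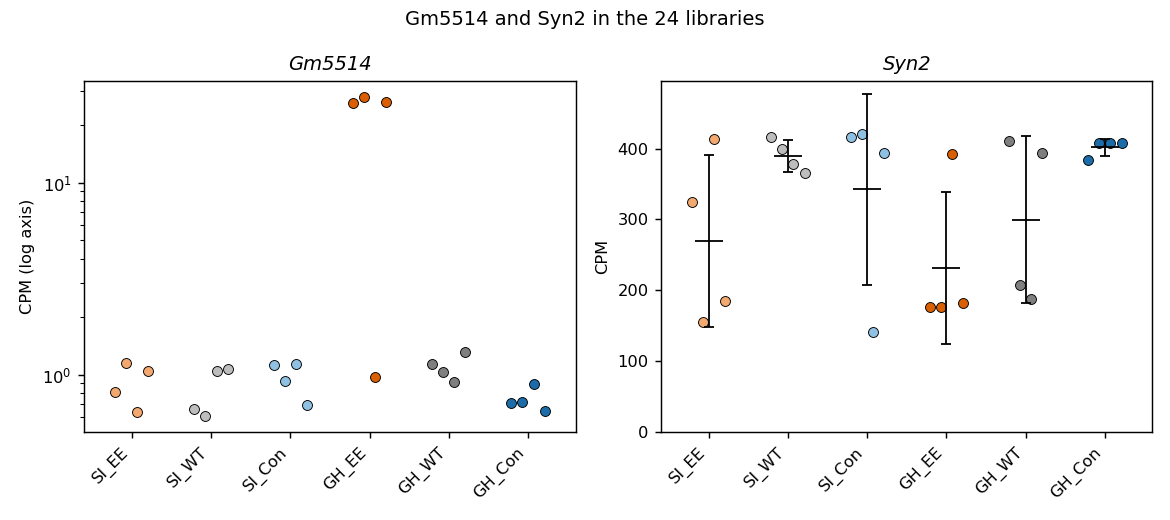
Level of Gm5514 (left, CPM on a log axis) and Syn2 (right, CPM on a linear axis) in each of the 24 libraries, by group. Points are libraries; the line and bars for Syn2 are the mean and SD of 4 libraries. Gm5514 was at 25.9 to 27.9 CPM in 3 GH_EE libraries and at most 1.31 CPM in the other libraries outside GH_EE; Syn2 formed a lower set of libraries in several groups.

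The same 3 GH_EE libraries were low for Syn2, the synaptic vesicle protein synapsin II (chromosome 6, 115134902 to 115282006, plus strand). Syn2 was at 176, 176, 392 and 182 CPM in GH_EE 1 to 4, against 384 to 408 CPM in GH_Con. Low levels were also read in GH_WT 2 and 3 (207 and 188 CPM), SI_EE 2 and 4 (155 and 185 CPM) and SI_Con 3 (141 CPM), libraries in which Gm5514 stayed at or under 1.14 CPM. Syn2 did not pass (log2 fold change −0.80, SE 0.35, edgeR adjusted p = 0.729). Pagr1a, a subunit of a histone methyltransferase complex, was carried by GH_EE 1 and 4: it was at 26.45, 0.515, 0.369 and 3.80 CPM in GH_EE, against 0.136 to 0.491 CPM in GH_Con (edgeR adjusted p = 0.47).

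Below the threshold, 533 genes were higher (2.62%) and 753 lower (3.7%) at an unadjusted p under 0.05, 6.32% of genes in all, where 1018 genes would be by chance. Without overlap, all 4 GH_EE libraries lay above all 4 GH_Con libraries for 915 genes (4.5%) and below them for 826 (4.06%). The smallest adjusted p after Gm5514 was 0.356, for Mphosph10, which takes part in making the small ribosomal subunit. Mphosph10 was at 23.3, 18.9, 17.4 and 19.5 CPM in GH_EE, against 13.9, 13.7, 11.3 and 14.7 CPM in GH_Con. The groups did not overlap, and the log2 fold change was 0.56. DESeq2 called Mphosph10 (adjusted p = 0.00413) and Pagr1a (0.00226), and on the lower side Tom1l1 (0.00689), B3gat2 (0.0357), Klhdc9 (0.0357) and Ccdc155 (0.0478).

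Other genes with the smallest unadjusted p on the higher side had varied roles. Trib2, a pseudokinase, was at 61.1, 53.0, 46.3 and 47.2 CPM in GH_EE, against 28.7, 34.1, 28.9 and 33.4 CPM in GH_Con (log2 fold change 0.73). Spry4, a feedback inhibitor of receptor tyrosine kinase signalling, averaged 19.1 ± 4.55 CPM in GH_EE and 10.8 ± 1.89 CPM in GH_Con (SD, n = 4 each). P4ha1, which hydroxylates prolines of collagen, averaged 72.6 ± 11.2 CPM in GH_EE and 43.35 ± 6.84 CPM in GH_Con. Mettl16, an RNA methyltransferase, Snap29, a membrane fusion protein, and Slc5a3, a myo-inositol carrier, had log2 fold changes of 0.54, 0.46 and 0.85, and none of the 3 overlapped between the groups. Zdhhc24, a palmitoyltransferase of the DHHC family, was at 12.6, 16.9, 15.8 and 13.5 CPM in GH_EE, against 6.91, 6.75, 6.10 and 12.04 CPM in GH_Con. Adjusted p-values of these genes were 0.47 to 0.484 with edgeR.

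On the lower side, Tom1l1, an adaptor of endosomal sorting and Src kinase signalling, had the tightest groups. It was at 14.7, 15.6, 15.1 and 14.7 CPM in GH_EE, against 20.3, 20.15, 19.3 and 20.02 CPM in GH_Con (log2 fold change −0.41, SE 0.09). B3gat2, a glucuronyltransferase of the HNK-1 carbohydrate epitope on neural adhesion molecules, was at 12.1, 7.34, 8.72 and 7.57 CPM in GH_EE, against 13.3, 21.5, 13.8 and 18.4 CPM in GH_Con. Fbn1, the microfibril protein fibrillin, averaged 4.21 ± 0.69 CPM in GH_EE and 7.06 ± 1.07 CPM in GH_Con. Kdelr1, which retrieves chaperones to the endoplasmic reticulum, averaged 26.4 ± 2.82 CPM in GH_EE and 38.5 ± 5.79 CPM in GH_Con. Rnf220, a ubiquitin ligase, Klhdc9, Ccdc155, which links telomeres to the cytoskeleton in meiosis, B3galt6, a glycosaminoglycan linker enzyme, and Sdr42e1 had log2 fold changes between −1.07 and −0.50. All of these groups stood apart, and the adjusted p-values ran from 0.378 to 0.484 with edgeR.

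Immediate early transcription factors had the highest median of the 35 gene lists. Of 25 members, 21 had positive fold changes, against 46.4% of all genes, and the median log2 fold change was 0.52, against −0.02 over all genes. No member passed the test across all genes. At an unadjusted p under 0.05, 6 were higher and 2 lower, against 2.62% and 3.7% of all genes. Above GH_Con 6 stood apart and 0 below, against 4.5% and 4.06% of all genes. The same shares stand beside the counts of each list that follows. The summed level of the list was 1656, 1368, 1330 and 1297 CPM in GH_EE, against 881, 1191, 947 and 1219 CPM in GH_Con, with no overlap. The median difference was 0.42 in female libraries alone, with 22 of 25 positive. In male libraries alone, where GH_Con has 1 library, it was 0.51, with 20 of 25 positive.

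Egr2, a zinc-finger factor on chromosome 10 (67535475 to 67542188, plus strand), had the largest fold change of the list. It was at 14.4, 12.5, 8.55 and 13.1 CPM in GH_EE, against 1.39, 4.95, 3.69 and 6.201 CPM in GH_Con (log2 fold change 1.58, SE 0.40, edgeR adjusted p = 0.47). Every GH_EE library was above every GH_Con library, and DESeq2 called the gene (log2 fold change 1.59, adjusted p = 0.0378). The sequence before an Egr2 start site is shown because it holds a CArG box, the site that serum response factor binds at activity-induced genes, in capitals. It is the 250 bases before the start at chr10:67537619-67537868, plus strand, RefSeq, GRCm38.p6, 5′ to 3′, and the box begins 72 bases before the start.
Egr2: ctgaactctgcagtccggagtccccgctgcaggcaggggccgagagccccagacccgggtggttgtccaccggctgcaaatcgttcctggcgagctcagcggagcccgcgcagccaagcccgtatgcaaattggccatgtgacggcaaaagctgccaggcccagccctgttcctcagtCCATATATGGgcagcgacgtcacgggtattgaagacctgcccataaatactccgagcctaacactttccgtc
Of the 20 list members with a promoter window in the RefSeq table (250 bases before to 50 after a start, 300 in all), 1 (5.0%) held a CArG box on either strand, against 1.63% of the 13022 tested genes with a window. The full cyclic AMP response element, TGACGTCA, was in 2 of the 20, Btg2 and Maff, against 3.26%. A match in these letters is a description of the window and not evidence of binding.

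Fos, the AP-1 subunit on chromosome 12 (85473890 to 85477273, plus strand), was at 41.7, 33.9, 29.5 and 23.3 CPM in GH_EE, against 7.48, 25.3, 12.6 and 21.01 CPM in GH_Con. GH_EE 4 lay below GH_Con 2, so the groups overlapped (log2 fold change 0.95, SE 0.33, edgeR adjusted p = 0.575). Nr4a1, an orphan nuclear receptor, was at 153, 126, 107 and 99.7 CPM in GH_EE, against 45.2, 82.6, 60.1 and 77.6 CPM in GH_Con, with no overlap. Tiparp, an ADP-ribosyltransferase, and Egr1 also stood apart, with log2 fold changes of 0.55 and 0.55. Junb, another AP-1 subunit, was at 60.3, 59.9, 70.1 and 62.0 CPM in GH_EE, against 28.7, 63.5, 36.5 and 37.4 CPM in GH_Con, where replicate 2 was level with GH_EE. Klf4, a zinc-finger factor, had a log2 fold change of 0.73 with overlap.

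Not every member lay on that side. Nr4a2, a nuclear receptor that also marks deep cortical layers, was at 35.8, 22.5, 16.5 and 23.8 CPM in GH_EE, against 32.0, 55.65, 25.3 and 53.1 CPM in GH_Con (log2 fold change −0.75). Npas4, a factor specific to neuronal activity, was at 15.1, 15.2, 9.88 and 9.49 CPM in GH_EE, against 8.78, 12.1, 8.30 and 23.6 CPM in GH_Con. Its log2 fold change of −0.09 turned to 0.36 without GH_Con 4.

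Among activity-regulated effectors, 27 of 30 had positive fold changes (median 0.23), 7 were higher and 0 lower at an unadjusted p under 0.05, and 10 stood apart above GH_Con and 0 below. Arc, which controls the removal of glutamate receptors from synapses (chromosome 15, 74669083 to 74672570, minus strand), was at 401, 311, 221 and 253 CPM in GH_EE, against 91.0, 146, 109 and 170.2 CPM in GH_Con. The groups did not overlap (log2 fold change 1.20, SE 0.41, edgeR adjusted p = 0.575). Sik1, a salt-inducible kinase that represses CREB coactivators, was at 19.98, 17.5, 23.4 and 20.6 CPM in GH_EE, against 11.45, 14.9, 10.45 and 8.99 CPM in GH_Con. Dusp4 and Dusp6, phosphatases of MAP kinases, and Trib1 stood apart with log2 fold changes of 1.04, 0.52 and 0.57. Gpr3, a constitutively active receptor, was at 12.2, 10.1, 7.95 and 7.46 CPM in GH_EE, against 4.32, 6.49, 4.89 and 7.73 CPM in GH_Con. Bdnf, the neurotrophin best known as an activity-regulated gene, was at 34.4, 27.9, 24.98 and 22.99 CPM in GH_EE, against 28.0, 28.1, 22.1 and 25.9 CPM in GH_Con, with overlap and a log2 fold change of 0.08.

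**Figure D2:**
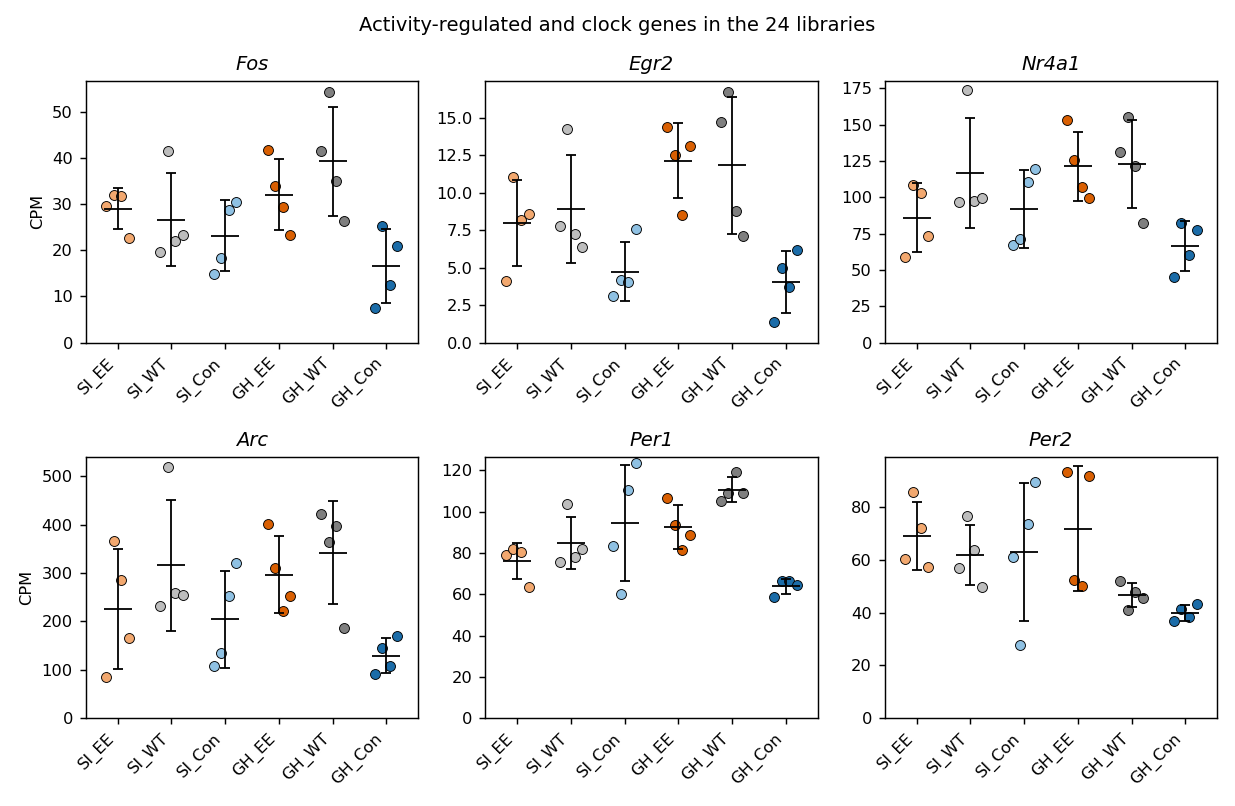
Levels (CPM) of 3 immediate early transcription factors, the effector Arc and 2 clock genes in the 24 libraries, by group. Points are libraries, and lines with bars are the mean and SD of 4 libraries. GH_EE lay above GH_Con without overlap for Egr2, Nr4a1, Arc, Per1 and Per2; GH_Con had the lowest mean of the 6 groups in each panel.

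GH_Con was low for these genes beside the whole series. Its mean was the lowest of the 6 groups for 15 of 25 immediate early factors (60.0%) and 15 of 30 effectors, against 14.7% of all genes. The GH_EE mean was the highest of the 6 groups for 9 of the 25 factors and 7 of the 30 effectors, against 16.5% of all genes. GH_WT minus GH_Con, which shares the GH_Con libraries, gave a log2 fold change of 1.41 for Arc, 1.54 for Egr2 and 1.245 for Fos. SI_Con minus GH_Con, which shares them too, gave 0.66 for Arc, 0.22 for Egr2 and 0.48 for Fos. A higher GH_EE and a low GH_Con cannot be told apart. In isolated mice SI_EE minus SI_Con shares no library with GH_EE minus GH_Con. Its list median was 0.03 for the immediate early factors, with 14 of 25 positive, and 0.08 for the effectors, with 17 of 30 positive. Cerebellar markers summed to 8314 CPM in SI_EE 1, against 1191, 1397 and 1476 CPM in SI_EE 2 to 4. The immediate early list summed to 692, 1644, 1556 and 1275 CPM in SI_EE, against 1118, 1049, 1271 and 1539 CPM in SI_Con. The effectors summed to 1675, 3372, 3370 and 3086 CPM in SI_EE, against 2851, 2704, 2877 and 3390 CPM in SI_Con. SI_EE 1 was the lowest for both lists, and its part in these medians was not tested.

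Among the 16 libraries outside GH_EE and GH_Con, the genes whose log2 CPM followed Arc most closely, of 12064 genes at 5 CPM or more, were Nr4a1 (Pearson r = 0.95), Gpr3 (0.86), Egr1 (0.86), Dusp6 (0.84), Junb (0.84), Midn (0.83), Frmd6 (0.83), Cyp51 (0.82), Egln3 (0.82) and Kctd10 (0.82). These libraries span the 4 other groups, and r is a description. They include SI_EE 1, with 8314 CPM of cerebellar markers and the lowest summed immediate early level of the series (692 CPM). Its part in the r values was not tested. Midn, which carries nuclear proteins to the proteasome, was at 73.0, 70.55, 60.9 and 55.1 CPM in GH_EE, against 36.4, 45.2, 37.8 and 49.8 CPM in GH_Con, again with no overlap (log2 fold change 0.62).

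Clock genes had 14 of 17 members positive (median log2 fold change 0.20), with 5 higher and 0 lower at an unadjusted p under 0.05 and 5 apart above GH_Con. The list median was 0.18 in GH_WT minus GH_Con and 0.28 in SI_Con minus GH_Con, which share GH_Con. GH_Con had the lowest mean of the 6 groups for 10 of the 17 (58.8%), against 14.7% of all genes. GH_EE had the highest for 8 (47.1%), against 16.5% of all genes. Per1 and Per2 encode the period proteins, which repress their own transcription in a daily cycle. Per1 (chromosome 11, 69095217 to 69109960, plus strand) was at 107, 93.4, 81.3 and 88.6 CPM in GH_EE, against 58.7, 66.3, 66.3 and 64.5 CPM in GH_Con (log2 fold change 0.53, SE 0.16, edgeR adjusted p = 0.537). Per2 was at 93.2, 52.4, 50.02 and 91.5 CPM in GH_EE, against 36.8, 41.2, 38.2 and 43.15 CPM in GH_Con. GH_EE lay above GH_Con for both, and the male GH_EE libraries 1 and 4 were the highest for Per2. Bhlhe40, a repressor that also answers activity, was at 170.2, 183, 143.5 and 168.5 CPM in GH_EE, against 116, 123, 106 and 90.15 CPM in GH_Con. Nr1d2, which encodes REV-ERB-beta, stood apart as well (0.30), and Arntl, the activator BMAL1, had a log2 fold change of 0.33 with overlap. Dbp, an output gene of the clock, was at 51.2, 75.6, 82.5 and 68.1 CPM in GH_EE, against 84.8, 76.3, 77.6 and 58.9 CPM in GH_Con, so it did not share the direction of the period genes (log2 fold change −0.10).

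The sequence before a Per1 start is shown for the E-box, CACGTG, that the CLOCK and BMAL1 pair binds, in capitals. It covers chr11:69098699-69098948, plus strand, RefSeq, GRCm38.p6, and the E-box begins 166 bases before the start.
Per1: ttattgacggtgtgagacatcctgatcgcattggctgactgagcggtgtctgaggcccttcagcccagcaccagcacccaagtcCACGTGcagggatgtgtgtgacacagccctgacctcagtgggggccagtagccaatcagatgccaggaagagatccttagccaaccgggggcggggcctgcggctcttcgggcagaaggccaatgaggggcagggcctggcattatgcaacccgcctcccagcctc
An E-box was found in 5 of the 15 clock genes with a window (33.3%), Per1, Cry1, Tef, Bhlhe41 and Ciart, against 10.9% of tested genes with a window. The time of day at which tissue was taken is not given in the sources used here, so its part in the clock values was not tested.

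Glucocorticoid-responsive genes had 17 of 21 members positive in GH_EE minus GH_Con (median 0.24) and 2 of 21 in SI_EE minus SI_Con (median −0.31). The list median was 0.26 in GH_WT minus GH_Con and 0.68 in SI_Con minus GH_Con, which share GH_Con. GH_Con had the lowest mean of the 6 groups for 9 of the 21 (42.9%), against 14.7% of all genes. GH_EE had the highest for 2 (9.52%), against 16.5% of all genes. The members were spread over the libraries. Tsc22d3, the glucocorticoid-induced leucine zipper, was at 81.9, 77.2, 74.5 and 103.7 CPM in GH_EE, against 73.8, 63.9, 70.3 and 61.6 CPM in GH_Con. Errfi1, an inhibitor of the EGF receptor, was at 32.8, 30.1, 29.6 and 33.9 CPM in GH_EE, against 25.7, 27.15, 25.6 and 29.3 CPM in GH_Con. Zbtb16, a zinc-finger repressor, was at 92.4, 48.1, 40.8 and 74.3 CPM in GH_EE, against 39.9, 27.7, 38.15 and 47.4 CPM in GH_Con. Of the 21, 5 stood apart above GH_Con (Per1, Tsc22d3, Errfi1, Pdk4 and Nr3c1) and 0 below, and Per1 alone had an unadjusted p under 0.05. Female libraries alone gave a median difference of −0.02, with 10 of 21 positive.

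Among the 8 libraries, summed levels of chaperone genes were highest in the 2 male GH_EE libraries. Of 19 cytosolic heat shock genes, 19 had positive fold changes (median 0.23). At an unadjusted p under 0.05, 5 were higher, against 2.62% of all genes, and 1 stood apart above GH_Con, against 4.5%. Of 22 genes of the unfolded protein response in the endoplasmic reticulum, 19 were positive (median 0.24), 6 were higher and 0 lower at that p, and 2 stood apart. The summed level of the endoplasmic reticulum list was 3279, 2429, 2433 and 3172 CPM in GH_EE, against 2297, 2513, 2430 and 2483 CPM in GH_Con. GH_EE 1 and 4 were above all controls, and GH_EE 2 and 3 were level with them.

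Hspa5, the chaperone BiP of the endoplasmic reticulum (chromosome 2, 34771970 to 34777547, plus strand), was at 398, 222, 212 and 309 CPM in GH_EE, against 181, 215, 198 and 194 CPM in GH_Con (log2 fold change 0.53, SE 0.26, edgeR adjusted p = 0.785). Sdf2l1, a partner of BiP, was at 20.1, 9.48, 9.60 and 16.4 CPM in GH_EE, against 8.73, 9.78, 7.44 and 7.70 CPM in GH_Con. Pdia4, a protein disulfide isomerase, was at 64.5, 36.3, 45.3 and 62.0 CPM in GH_EE, against 36.03, 41.3, 35.9 and 36.9 CPM in GH_Con. In each of the 3, GH_EE 1 and 4 were the highest of the 8 libraries. Hspa1a and Hspa1b, near-identical copies of the inducible HSP70 whose reads cannot be separated with confidence, followed the same order, and Hspa1a was at 29.3, 12.6, 13.7 and 25.1 CPM in GH_EE, against 15.15, 12.8, 11.3 and 10.7 CPM in GH_Con.

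A second set of these genes stood above the controls in females too. Manf, a secreted factor that protects neurons from stress of the endoplasmic reticulum, was at 62.1, 45.3, 43.3 and 68.8 CPM in GH_EE, against 31.8, 38.5, 34.5 and 39.6 CPM in GH_Con, with no overlap (log2 fold change 0.60, SE 0.15, edgeR adjusted p = 0.47). Dnajc3, a co-chaperone that also restrains the kinase PERK, was at 95.1, 77.9, 72.3 and 87.2 CPM in GH_EE, against 58.1, 60.9, 59.7 and 66.2 CPM in GH_Con, with no overlap. Xbp1, the transcription factor whose messenger is spliced by IRE1, was at 47.8, 50.7, 40.1 and 49.0 CPM in GH_EE, against 26.35, 28.2, 25.1 and 44.1 CPM in GH_Con, where the male library 4 was the highest. Dnajb5, a cytosolic co-chaperone, also stood apart, at 140 to 171 CPM in GH_EE against 104 to 134 CPM in GH_Con. With female libraries alone, the log2 fold change was 0.34 for Manf, 0.33 for Dnajc3 and 0.77 for Xbp1, against 0.13 for Hspa5, 0.01 for Hspa1a and −0.08 for Hspa1b. The median difference of the unfolded protein response list was 0.03 in females alone, with 13 of 22 positive, and 0.45 in males alone, where GH_Con has 1 library.

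The sequences before the Hspa5 and Dnajc3 starts are shown for the endoplasmic reticulum stress element, which the unfolded protein factors ATF6 and XBP1 are known to use, in capitals. They cover chr2:34771840-34772089 and chr14:118937682-118937931, plus strand, RefSeq, GRCm38.p6.
Hspa5: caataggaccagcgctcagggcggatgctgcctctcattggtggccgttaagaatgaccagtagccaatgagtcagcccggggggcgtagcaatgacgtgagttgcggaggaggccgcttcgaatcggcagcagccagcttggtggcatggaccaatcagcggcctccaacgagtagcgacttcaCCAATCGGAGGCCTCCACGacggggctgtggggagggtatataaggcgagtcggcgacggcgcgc
Dnajc3: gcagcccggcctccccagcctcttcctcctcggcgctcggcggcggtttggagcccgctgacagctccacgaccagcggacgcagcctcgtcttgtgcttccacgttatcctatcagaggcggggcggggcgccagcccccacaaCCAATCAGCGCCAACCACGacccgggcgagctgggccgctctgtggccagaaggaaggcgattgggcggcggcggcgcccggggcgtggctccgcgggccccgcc
The element begins 65 bases before the start in Hspa5 and 105 bases before it in Dnajc3. It was found on either strand in 7 of the 19 unfolded protein response genes with a window (36.8%), with Hsp90b1, Calr, Canx, Pdia6 and Creld2 beside the 2 shown, against 0.154% of tested genes with a window. The heat shock element was in 4 of 14 cytosolic heat shock genes (28.6%), against 0.553%. GH_EE had the highest mean of the 6 groups for 14 of the 22 unfolded protein response genes (63.6%), against 16.5% of all genes. GH_Con had the lowest for 7 of the 22 (31.8%) and 10 of the 19 heat shock genes (52.6%), against 14.7% of all genes. In SI_EE minus SI_Con 18 of the 22 were positive (median 0.25), and 13 of the 19 heat shock genes (median 0.04). The unfolded protein response median was −0.04 in GH_WT minus GH_Con and 0.03 in SI_Con minus GH_Con, which share GH_Con.

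**Figure D3:**
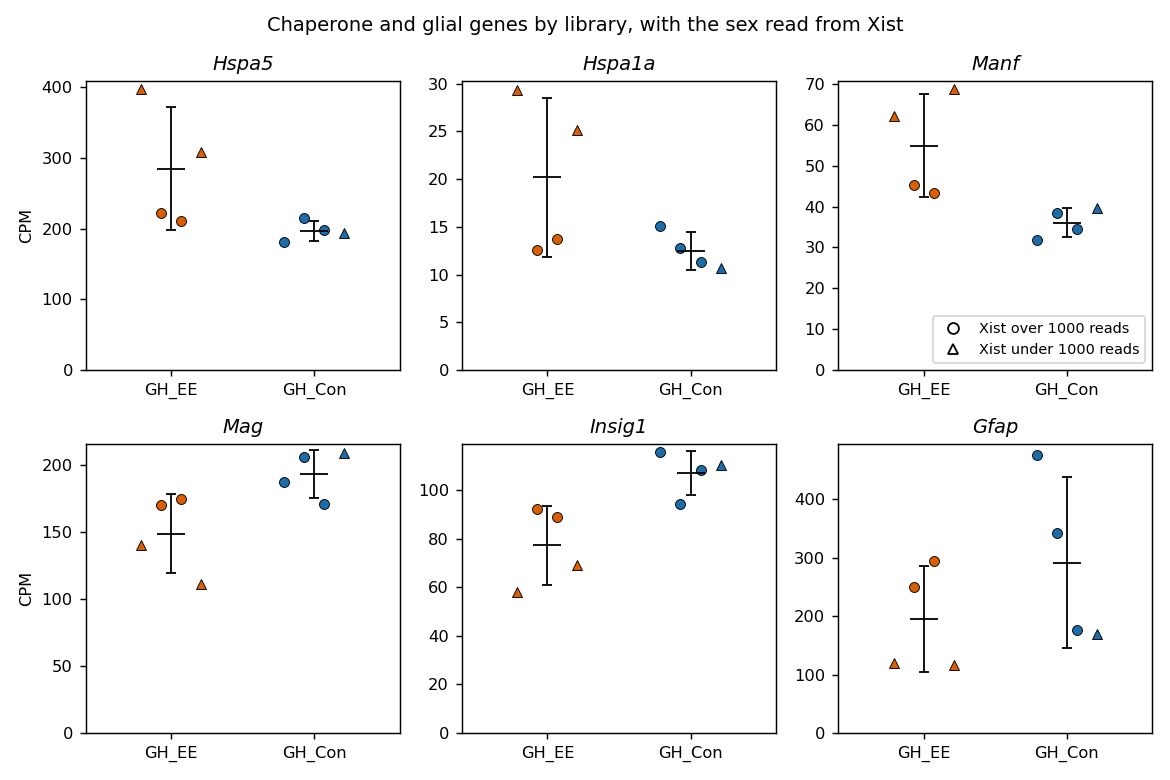
Levels (CPM) of 3 chaperone genes (top) and of myelin, sterol and astrocyte genes (bottom) in the 8 libraries. Circles are female and triangles male libraries by Xist (threshold 1000 reads); lines with bars are the mean and SD of 4 libraries. The 2 male GH_EE libraries were the highest for Hspa5, Hspa1a and Manf and the lowest for Mag, Insig1 and Gfap.

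Reads of mitochondrially encoded genes were fewer in GH_EE than in GH_Con. They made up 6.99%, 7.85%, 7.34% and 8.09% of reads in GH_EE, against 9.03%, 9.12%, 8.69% and 8.36% in GH_Con. The GH_WT libraries, at 7.75%, 7.25%, 8.19% and 8.19%, also lay below every GH_Con library. The difference in means was −1.229 percentage points (7.57 ± 0.50 in GH_EE and 8.80 ± 0.35 in GH_Con, SD, n = 4 each; exact permutation p = 0.0286, two-sided, the smallest that 70 assignments allow). Without GH_Con 1 or GH_Con 2 the exact p was 0.0571, and with the replicate number as a block it was 0.125, the smallest that 4 pairs allow, with all 4 same-numbered differences negative. All 13 protein genes had negative fold changes (median log2 fold change −0.23), 10 stood apart below GH_Con, 4 were lower at an unadjusted p under 0.05, and none passed the test across all genes. mt-Co1, a core subunit of cytochrome c oxidase, averaged 21370 ± 1299 CPM in GH_EE and 25050 ± 908 CPM in GH_Con.

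Most mitochondrial genes are read from 1 strand of the circular genome. mt-Nd6, a subunit of respiratory complex I, and 8 transfer RNAs lie on the other, annotated as the minus strand. The minus-strand genes differed most: 9 of 9 were negative with a median log2 fold change of −1.251 (−1.81 to −0.65), 7 stood apart below GH_Con and 7 were lower at an unadjusted p under 0.05. Among them mt-Tq, mt-Ta, mt-Tn, mt-Tc, mt-Ty and mt-Tp were read at no more than 1.49 CPM in any of the 8 libraries. The value of −1.81 was that of mt-Tn, at 0.0531, 0.438, 0.511 and 0.177 CPM in GH_EE, against 0.734, 1.36, 1.49 and 0.594 CPM in GH_Con. Of the 27 plus-strand genes, 24 were negative with a median of −0.18 (−0.34 to 0.06), 9 stood apart and 3 were lower at that p. This split was noticed after the values were seen.

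mt-Nd6 (chromosome M, 13552 to 14070) was at 77.3, 97.95, 81.85 and 93.1 CPM in GH_EE, against 169, 159, 156 and 118 CPM in GH_Con (log2 fold change −0.78, SE 0.18, edgeR adjusted p = 0.432). mt-Ts1, a serine transfer RNA (6870 to 6938), was at 1.80, 1.98, 2.21 and 2.004 CPM in GH_EE, against 5.00, 7.60, 5.98 and 3.10 CPM in GH_Con (log2 fold change −1.44, SE 0.31, adjusted p = 0.378). mt-Te, a glutamate transfer RNA (14071 to 14139), was at 1.46, 1.52, 1.39 and 1.86 CPM in GH_EE, against 4.73, 4.60, 4.55 and 2.33 CPM in GH_Con. All 3 stood apart, GH_Con 4 was the control nearest to GH_EE, and DESeq2 called them (adjusted p = 0.027, 0.00632 and 0.0159). Whether counting used strand is not stated, so reads of the opposite strand over these genes cannot be told apart from their own, and mt-Nd6 overlaps the end of mt-Nd5.

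Summed over the 9 genes, minus-strand reads were 81.7, 103.5, 87.95 and 98.98 CPM in GH_EE, against 182.5, 177, 172.5 and 126.5 CPM in GH_Con. The 16 other libraries ran from 75.4 to 156 CPM, so 3 of the 4 GH_Con libraries were the highest of the series. Most of the summed reads were of mt-Nd6, with 77.3 of the 81.7 CPM in GH_EE 1. The median of the 9 genes was −1.01 in GH_WT minus GH_Con and −0.75 in SI_Con minus GH_Con, which share GH_Con, and −0.07 in SI_EE minus SI_Con, which does not. For the 12 plus-strand protein genes it was −0.26 in SI_EE minus SI_Con, beside −0.23 in GH_EE minus GH_Con. For the same 12 genes it was −0.18 in GH_WT minus GH_Con and −0.02 in SI_Con minus GH_Con. Summed reads of all plus-strand genes were 72199, 75518, 73659 and 74500 CPM in SI_EE. In SI_Con they were 80533, 87889, 104394 and 78778 CPM, so SI_Con 3 was the highest of these.

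**Figure D4:**
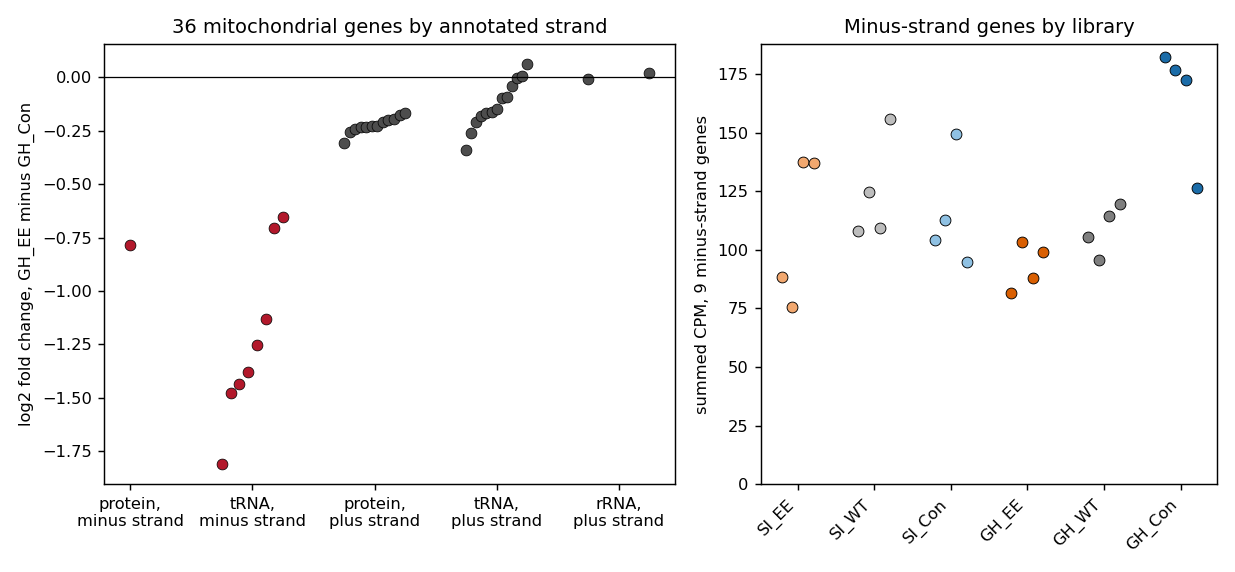
Left, log2 fold change (GH_EE minus GH_Con) of 36 mitochondrial genes by annotated strand and RNA class; each point is a gene, red for the minus strand. Right, summed CPM of the 9 minus-strand genes in each of the 24 libraries by group. Minus-strand genes lay between −1.81 and −0.65, and GH_EE libraries were at 81.7 to 103.5 CPM against 126.5 to 182.5 CPM in GH_Con.

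Messengers of cytosolic ribosomal proteins had 76 of 79 members negative (median −0.20), with 3 lower at an unadjusted p under 0.05 and 18 apart below GH_Con. Rps25, of the small subunit, was at 80.75, 72.15, 66.1 and 95.3 CPM in GH_EE, against 100.1, 139.8, 111 and 105 CPM in GH_Con. Rps2, of the same subunit, was at 124, 110.3, 144 and 153 CPM in GH_EE, against 190.3, 170.5, 181 and 175 CPM in GH_Con. The list was also negative in SI_EE minus SI_Con (78 of 79, median −0.29). In GH_Con 2 longer genes read lower. The Spearman correlation of annotated exon length with each gene's deviation from its mean log2 CPM over the 24 libraries was −0.195. The summed ribosomal level of GH_Con 2, 13020 CPM, was the highest of the 8 libraries. The other controls were at 10290 to 10570 CPM and GH_EE at 8957 to 10240 CPM. Longer genes also read lower in SI_Con 2 and SI_Con 3 (−0.258 and −0.2). The list summed to 13730 and 15180 CPM there, against 9621 and 10060 CPM in SI_Con 1 and 4. Over the 8 libraries that correlation was 0.151, −0.002, 0.093 and 0.073 in GH_EE, against 0, −0.195, −0.037 and 0.007 in GH_Con, so 3 of the 4 GH_EE libraries lay above every control. Its part in the ribosomal and mitochondrial values was not tested. Nuclear genes of oxidative phosphorylation lay closer to 0, with 58 of 74 negative, a median of −0.06 and 1 apart.

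Myelin genes were mostly negative, with wide overlap. Of 24 genes of mature oligodendrocytes and myelin, 23 were negative (median log2 fold change −0.20) and 0 stood apart. At an unadjusted p under 0.05, 2 were lower, against 3.7% of all genes. Mag, a myelin adhesion glycoprotein, was at 140, 169.8, 174 and 111 CPM in GH_EE, against 187, 206, 170.3 and 208 CPM in GH_Con. Mog, on the outer face of myelin, was at 49.8, 63.1, 57.7 and 40.7 CPM in GH_EE, against 60.5, 71.5, 59.8 and 79.7 CPM in GH_Con. Mbp, a main protein of compact myelin, was at 560, 599, 566 and 465 CPM in GH_EE, against 573, 811, 600.0 and 772.5 CPM in GH_Con. The male library GH_EE 4 was the lowest for each, and the male GH_Con 4 was the highest for Mag and Mog. With female libraries alone the list median was 0.02, and with male libraries alone, where GH_Con has 1 library, it was −0.61. GH_Con had the highest mean of the 6 groups for 19 of the 24 genes (79.2%), against 16.4% of all genes.

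Cholesterol genes, which oligodendrocytes and astrocytes use heavily, had 22 of 24 members negative (median −0.16), 4 lower at an unadjusted p under 0.05 and 2 apart below. Insig1, which holds back sterol-regulated transcription, was at 58.2, 92.3, 89.1 and 69.2 CPM in GH_EE, against 116, 94.3, 108 and 110.3 CPM in GH_Con, just without overlap. GH_EE 1 and 4 were the lowest. In females alone the list median was 0.01, with 13 of 24 positive.

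Astrocyte and microglial genes varied widely within both groups. Homeostatic astrocyte genes had 13 of 16 members negative (median −0.13), 3 lower at an unadjusted p under 0.05 and 2 apart below GH_Con. Reactive astrocyte genes had 9 of 19 positive (median −0.01), and 1 of them, Emp1, a membrane protein, was higher at that p and stood apart above GH_Con (log2 fold change 0.90). Sox9, an astrocyte transcription factor, was at 16.7, 18.6, 23.9 and 16.7 CPM in GH_EE, against 30.8, 26.1, 23.15 and 37.5 CPM in GH_Con. Gfap, the filament of reactive astrocytes, was at 119, 249.6, 295 and 117 CPM in GH_EE, against 477, 343, 177 and 170.2 CPM in GH_Con. Trem2, a lipid receptor of plaque-associated microglia, was at 6.45, 15.04, 15.5 and 7.25 CPM in GH_EE, against 27.2, 20.7, 12.1 and 9.79 CPM in GH_Con. Cst7, a cystatin of the same cell state, was at 0.424, 7.80, 6.84 and 0.530 CPM in GH_EE, against 13.95, 3.70, 2.81 and 0.904 CPM in GH_Con. In both groups male libraries were lowest for Gfap, Trem2 and Cst7. Of 25 genes of plaque-associated microglia 20 were negative (median −0.26), but 0 had an unadjusted p under 0.05 and 0 stood apart. P2ry12, a homeostatic microglial receptor, differed little, with 25.6, 33.5, 31.7 and 19.5 CPM in GH_EE, against 37.4, 31.1, 30.1 and 15.7 CPM in GH_Con.

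Interferon-stimulated genes had the lowest median outside the blood list, with 25 of 26 members negative and a median of −0.39. None of the 26 had an unadjusted p under 0.05 and none stood apart. Irf7, the factor that amplifies interferon, was at 1.30, 2.24, 3.44 and 1.56 CPM in GH_EE, against 3.94, 7.21, 3.75 and 2.09 CPM in GH_Con. Rsad2, an antiviral enzyme, was at 1.22, 2.91, 2.92 and 0.796 CPM in GH_EE, against 1.52, 4.71, 3.81 and 3.44 CPM in GH_Con. In isolated mice 24 of the 26 were positive (median 0.57). Of the antigen presentation genes, Psmb8, an immunoproteasome subunit, was at 1.86, 2.21, 2.64 and 2.36 CPM in GH_EE, against 4.92, 5.90, 3.12 and 2.77 CPM in GH_Con, with no overlap, while H2-Eb1, an MHC class II chain, was at 0.557, 0.592, 0.539 and 1.80 CPM in GH_EE, against 0.490, 0.106, 0.458 and 0.413 CPM in GH_Con.

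**Figure D5:**
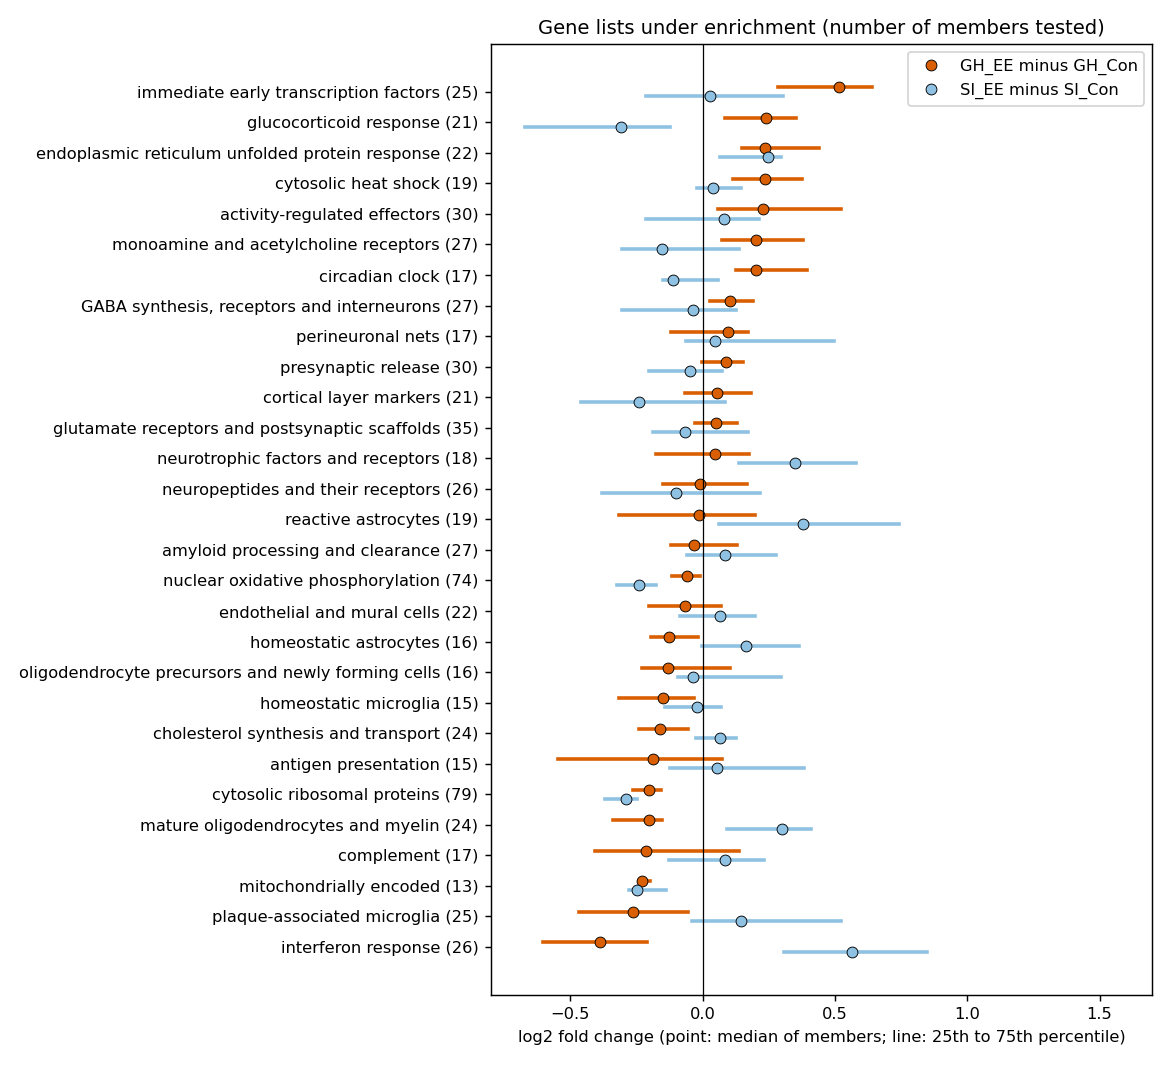
Log2 fold changes of 29 gene lists under enrichment. Points are medians over the members tested (number in brackets) and lines run from the 25th to the 75th percentile; orange is GH_EE minus GH_Con and blue SI_EE minus SI_Con. In GH_EE minus GH_Con, immediate early factors had the highest median (0.52) and interferon genes the lowest (−0.39). In SI_EE minus SI_Con these lists were at 0.03 and 0.57. SI_EE includes SI_EE 1, in which cerebellar markers summed to 8314 CPM.

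Synaptic genes differed by small amounts. Glutamate receptors and scaffolds had 24 of 35 members positive (median 0.05), presynaptic genes 22 of 30 (0.09) and GABA genes 22 of 27 (0.11), against 46.4% of all genes. Of the 35 glutamate genes 5 stood apart below GH_Con (Grm2, Grin2c, Grik5, Dlg4 and Homer3), against 4.06% of all genes. Above GH_Con 2 stood apart (Grm7 and Grik3), against 4.5% of all genes. At an unadjusted p under 0.05, 1 was lower, Grm2, and 0 higher, against 3.7% and 2.62% of all genes. Gad1, which makes GABA, was at 517, 559, 525 and 516 CPM in GH_EE, against 429, 405, 484 and 485 CPM in GH_Con, with no overlap (log2 fold change 0.23). Receptors for monoamines and acetylcholine had 22 of 27 positive (median 0.20). Htr1b, a serotonin receptor of axon terminals, was at 33.6, 19.2, 25.75 and 44.8 CPM in GH_EE, against 15.5, 18.8, 15.5 and 18.8 CPM in GH_Con, and the male GH_EE libraries were again the highest. Grm2, a presynaptic glutamate receptor, was at 33.3, 41.9, 41.3 and 29.9 CPM in GH_EE, against 46.9, 42.8, 48.8 and 45.55 CPM in GH_Con.

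Of the perineuronal net genes, Acan, the aggrecan core protein that surrounds parvalbumin interneurons, was at 7.93, 7.80, 8.29 and 8.58 CPM in GH_EE, against 4.16, 2.58, 6.30 and 5.09 CPM in GH_Con. The groups stood apart (log2 fold change 0.85, SE 0.24, edgeR adjusted p = 0.529), and with female libraries alone the log2 fold change was 0.89. Bcan, the related lectican brevican, lay on the other side, at 149, 135, 157.5 and 109 CPM in GH_EE, against 183, 158, 159 and 170.4 CPM in GH_Con. Cort, a somatostatin-like peptide of interneurons, was at 1.43, 2.11, 1.65 and 2.06 CPM in GH_EE, against 3.37, 3.11, 3.46 and 2.43 CPM in GH_Con. Neurotrophic factors and receptors had 12 of 18 positive with a median of 0.05 and none with an unadjusted p under 0.05.

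Genes of amyloid processing and clearance centred on 0, with 12 of 27 positive and a median of −0.03. Mouse App, the amyloid precursor, was at 1583, 1500.0, 1491 and 1417 CPM in GH_EE, against 1367, 1337, 1508 and 1345 CPM in GH_Con. Reads shared with the human transgene may be counted under either entry. Apoe, the lipid carrier that is the main risk gene of late-onset disease, was at 414, 420.1, 441 and 399.5 CPM in GH_EE, against 298, 382, 488.5 and 300.5 CPM in GH_Con. Thy1, whose promoter drives the transgenes, was at 1181, 1612, 2012 and 1282 CPM in GH_EE, against 2152, 2684, 1792 and 1203 CPM in GH_Con. All 3 overlapped.

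Whether enrichment differed between housings was tested as (GH_EE minus GH_Con) minus (SI_EE minus SI_Con). DESeq2 called 29 genes, some of them at extreme log2 values, such as 43.2 for Gm14308 and −24.1 for Gm49368. By edgeR's quasi-likelihood test 0 of 20354 genes (0%) were called, with 1576 (7.74%) at an unadjusted p under 0.05. Gm5514 had the smallest adjusted p, 0.0717, with an interaction of 4.87 on the log2 scale (SE 0.79) and −0.10 in SI_EE minus SI_Con; without GH_EE 3 it was called (adjusted p = 7.65e-09). Trf, the iron carrier transferrin of oligodendrocytes, had a log2 fold change of −0.28 in GH_EE minus GH_Con and 0.65 in SI_EE minus SI_Con (interaction −0.93, adjusted p = 0.392), and DESeq2 called it (adjusted p = 0.0194). For Sik1 the log2 fold change was 0.83 in GH_EE minus GH_Con and −0.45 in SI_EE minus SI_Con. For Per1 it was 0.53 and −0.31, and for Sox9 −0.63 and 0.64. None of the 3 interactions passed. SI_EE 1, with 8314 CPM of cerebellar markers, had the lowest summed effectors (1675 CPM) and clock genes (1407 CPM) of the series. Its part in the SI_EE values of these 3 genes was not tested. Without SI_EE 1, edgeR again called 0 genes for the interaction, with 1322 at an unadjusted p under 0.05.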

How the data were processed

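Bulk RNA from mouse medial prefrontal cortex was sequenced in 24 libraries, and the authors deposited a table of read counts per gene (56750 entries, 91.8% with a symbol). Entries without a symbol held 0.421% of reads. They were kept in the fit under their identifiers and left out only of the genes named by rule. Per the submitters' processing notes the build was mm10 (GRCm38). Aligner, counter and strand setting: not given in the sources used here. Samples were grouped by title. Counts were fitted with edgeR 4.0.16 (R 4.3.3, TMM, filterByExpr, quasi-likelihood F test, robust) with all 24 libraries in 1 model, so the 6 groups share 1 estimate of the spread, and adjusted by Benjamini-Hochberg over 20354 genes at 0.05. Levels are CPM with TMM library sizes, and levels are compared between libraries and not between genes. The mitochondrial share was tested by an exact permutation over 70 assignments.

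The members, lists and tests were chosen with earlier results of these data known. Genes named by rule are the 12 with the smallest p in each direction at a mean of 1 CPM or more, leaving out symbols of predicted genes and pseudogenes, up to 6 members a list by smallest p, a set named whatever its values (Fos, Arc, Egr2, Npas4, Bdnf, Per1, Per2, Dbp, App, Thy1, Apoe, Trem2, Cst7, P2ry12, Gfap and Mbp) and the 10 most like Arc. Others, among them Gm5514, Fhl1, Exosc6 and members given because their groups stood apart, were chosen after their values were seen. Alternatives were DESeq2 1.42.0, limma-voom 3.58.1, RLE size factors, no filter, a replicate block, a sex covariate and left-out libraries. Counts were simulated a single time for GH_EE minus GH_Con, with 20017 genes in the fit and no other group difference. Changed genes were drawn from those at a mean of 1 CPM or more, so the shares do not cover genes below that. Of 67 genes changed 1.5-fold 10.4% were called, of 67 changed 2-fold 50.7%, and of 66 changed 4-fold 84.8%. Beside them 2 unchanged genes were called. Deviations of same-numbered GH_EE and GH_Con libraries correlated at −0.06 to 0.05. These values show no pairing by number, but with so few libraries a group they cannot exclude it.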

Additional observations from a re-analysis of the deposited data

Results flagged for a closer look

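In a group of 4 libraries, the gap of the highest or lowest library to its nearest neighbour was compared with the whole range, and a share above Dixon's 95% critical value for 4 samples stood out. This held for 13 of 212 groups, where chance gives about 1 in 20. In GH_EE, replicate 3 was the lowest for Gm5514 (0.923) and the highest for Syn2 (0.972), replicate 4 the highest for H2-Eb1 (0.958), replicate 1 the highest for Pagr1a (0.868) and replicate 2 the highest for Klhdc9 (0.885). In GH_Con, replicate 4 was the highest for Xbp1 (0.838), Zdhhc24 (0.863), Snap29 (0.842) and the haemoglobin genes Hba-a1 (0.861) and Hbb-bs (0.861), and the lowest for mt-Te (0.925). GH_Con 1 was the highest for Tiparp (0.885) and the lowest for Syn2 (0.967).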

How the results depend on the processing

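In GH_EE minus GH_Con, DESeq2 called 26 genes, limma-voom 0, the 8 libraries alone 2 (Fhl1 and Exosc6), and 0 were called without the 4 libraries with lower long genes or with female libraries alone, an alternative chosen after seeing the data. Some of the DESeq2 calls had extreme log2 fold changes, such as 24.6 for Gm14308 and −23.9 for Gm49368. With 1 library left out each time the count was 1 to 1, and with the replicate block it was 1. For the interaction DESeq2 called 29 genes, the replicate block 0, and leaving out 1 library 0 to 1. The mitochondrially encoded read share, GH_EE minus GH_Con, differed by −1.229 points with the replicate block (exact p = 0.125, the smallest that 4 pairs allow) and by −1.403 to −1.036 without 1 library. Whether the numbers pair the samples is not stated in the labels. Of 105 named genes, those that changed sign were near 0 or variable. Npas4 was 0.011 with limma-voom, 0.36 in females alone and −0.24 to 0.36 without 1 library. Bdnf was −0.046 to 0.178 and P2ry12 −0.25 to 0.11 without 1 library, and P2ry12 was 0.11 with a sex covariate. Dbp was 0.015 with a sex covariate and −0.20 to 0.016 without 1 library. Cst7 was 0.098 in females alone and −1.04 to 0.66 without 1 library, and Hspa1b was −0.084 in females alone. The cause was not tested.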
